A study of Mus musculus with 12 samples.

Results

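The neutrophil granule genes measured in mouse hip cartilage were the 9 genes S100a8, S100a9, Ngp, Camp, Ltf, Lcn2, Mpo, Prtn3 and Ctsg. Every probe whose gene symbol, in any case, was one of these was taken, which gave 13 of the 21004 probes of the normalized table and 9 of its 15424 gene symbols. Mpo had 4 probes and Ltf 2, and the other 7 genes had 1 each. The early granule genes (Mpo, Prtn3 and Ctsg) held 6 probes, the late granule genes (Ltf, Ngp, Camp, S100a8 and S100a9) held 6, and Lcn2 was kept apart. All 13 probes were detected on all 12 arrays, with a highest detection p of 0.00214.

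RNA of hip cartilage from C57BL6 mice aged 4 to 6 weeks was hybridized to Illumina mouse BeadChips, with 12 arrays in 4 groups of 3. There was a control and an injured group of WT and the same of Mapk9 KO mice. Mapk9 encodes a c-Jun N-terminal kinase, and the labels give the knockout as MAPK9 KO without naming the allele. Injury was the avulsion of the femoral epiphysis of a freshly killed mouse. Control hips were frozen at once, and injured hips were kept for 4 h in serum-free medium before freezing, so injury and culture cannot be told apart in any injury change given here. The methods describe each replicate as hips of several mice combined, and they do not describe the Mapk9 KO arrays separately.

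Neutrophils fill their granules in sequence while they mature in the bone marrow. Promyelocytes make the azurophil granules, which hold myeloperoxidase and the serine proteases, and later stages make the specific granules, which hold lactoferrin, the cathelicidins and lipocalin 2. S100a8 and S100a9, the 2 chains of calprotectin, are made late and lie mostly in the cytosol, and they were counted here with the late genes.

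The arrays were alike in yield, with 16930 to 18969 probes detected and a median bead intensity of 121 to 190. At the Mapk9 probe detected on all 12 arrays (ILMN_2591066), the log2 level was 10.5 to 10.9 in WT control and 9.14 to 9.28 in Mapk9 KO control, a log2 difference of -1.57 (adjusted p = 0.0151 by limma), and the same difference of -1.57 was found between the injured groups (adjusted p = 0.00485). Signal at this probe thus remained in Mapk9 KO. The other Mapk9 probe, ILMN_2716527, was detected on 4 arrays. It read 6.23 to 7.29 in WT control and 4.09 to 4.28 in Mapk9 KO control, a log2 difference of -2.67 (adjusted p = 0.00244 by limma). Between the injured groups its difference was -2.03 (adjusted p = 0.00892). The part of the gene that was deleted is not given in the sources used here. All 24 chondrocyte marker probes were detected on at least 1 array. Their mean log2 level was 9.70 to 10.42 in WT control and 11.15 to 11.20 in WT injured, and 9.70 to 10.31 in Mapk9 KO control and 11.23 to 11.33 in Mapk9 KO injured. Skeletal muscle markers lay at 10.77 to 12.51 in WT control and 12.54 to 12.86 in Mapk9 KO control, and at 7.60 to 9.78 and 8.14 to 9.33 after injury. Genes of neutrophils and muscle were thus read beside those of cartilage, and in such bulk samples fewer cells of a type and less RNA per cell cannot be told apart.

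A BeadChip reads each transcript with a 50-base probe, and 2 genes were read at more than 1 place. The Mpo probes start at positions 1720, 2338, 2596 and 2684 of its transcript as the deposited annotation counts them, and 3 of them are shown because their changes after injury differed.
ILMN_2719256 (Mpo, from 1720): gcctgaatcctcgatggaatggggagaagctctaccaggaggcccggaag
ILMN_2925094 (Mpo, from 2338): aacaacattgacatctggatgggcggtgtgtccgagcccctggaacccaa
ILMN_2600421 (Mpo, from 2596): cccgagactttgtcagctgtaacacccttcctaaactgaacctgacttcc
The GC content of these 3 probes is 60%, 56% and 50% in that order, and that of the other Mpo probe, ILMN_1249030, is 54%. The 2 Ltf probes start at 2225 and 2661, with 386 bases between them. For these, 30 bases of each are shown, and capitals mark AATAAA, the letters of a polyadenylation signal, at the end of the first one. Whether these letters act as a signal was not tested.
ILMN_2754364 (Ltf, from 2225, last 30 bases): ctccctgctgtcactttaggtagaAATAAA
ILMN_2889020 (Ltf, from 2661, first 30 bases): gcacacacgtgtgaaagccagaggacaatc

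After injury in WT, 8 of the 13 granule gene probes, of 6 genes, were called higher (more than 2-fold, with an adjusted p under 0.05), and 0 were called lower. Over all 21004 probes 7.55% were called higher and 7.14% lower, and 25.3% had an adjusted p under 0.05. The median log2 change of the 13 probes was 1.43, against -0.02 over all probes, and all 13 lay above 0, where 48.2% of all probes did. The genes called were Mpo, Prtn3, Ctsg, Ltf, Ngp and Lcn2, and Camp, S100a8 and S100a9 were not called. Between groups, 10 of the 13 probes did not overlap, with every injured array above every control array, against 20.3% of all probes. Values below are deposited log2 levels normalized with vsn, and changes are differences of group means from the limma fit with their standard errors (SE).

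Mpo encodes myeloperoxidase, the haem enzyme that makes hypochlorous acid and that marks azurophil granules. Its probe ILMN_2925094 read 9.36, 9.89 and 9.61 on the WT control arrays and 11.85, 11.90 and 11.48 on the WT injured arrays. In Mapk9 KO it read 10.34, 10.64 and 10.37 in control and 11.95, 11.86 and 11.44 in injured hips. All injured arrays of a genotype stood above all its control arrays, by at least 1.59 in WT and 0.80 in Mapk9 KO. The change was 2.12 (SE 0.22, adjusted p = 0.000131 by limma) in WT and 1.30 (SE 0.19, adjusted p = 0.000403) in Mapk9 KO.

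The 4 Mpo probes did not change by the same amount. ILMN_2719256 rose by 2.37 (SE 0.32, adjusted p = 0.00066) in WT and by 1.89 (SE 0.21, adjusted p = 4.85e-05) in Mapk9 KO. ILMN_2600421 rose by 1.05 (SE 0.29, adjusted p = 0.0241) in WT and had a change of 0.49 (SE 0.19, adjusted p = 0.0669) in Mapk9 KO. ILMN_1249030, whose signal was the brightest of the 4, had changes of 0.67 (SE 0.26, adjusted p = 0.0877) and 0.11 (SE 0.22, adjusted p = 0.748) and was called in neither genotype. The call of ILMN_2600421 in WT was lost when WT control replicate 1 was left out (0.86, adjusted p = 0.0939), likewise without WT control replicate 3 (0.90, adjusted p = 0.0681), WT injured replicate 1 (1.07, adjusted p = 0.0593) or WT injured replicate 2 (0.94, adjusted p = 0.0883).

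Prtn3 encodes proteinase 3, a neutral serine protease of the azurophil granule. Its probe read 11.01, 12.18 and 11.05 in WT control and 12.95, 13.10 and 12.49 in WT injured hips. In Mapk9 KO it read 11.88, 12.10 and 11.78 in control and 12.94, 13.02 and 12.57 in injured hips. WT control replicate 2 stood over 1 log2 unit above the other two control arrays, and the groups still did not overlap in either genotype. Prtn3 rose by 1.43 (SE 0.32, adjusted p = 0.00953 by limma) in WT, a call that was lost with all probes of the array after neqc (1.23, adjusted p = 0.0602) and by the methods' t-test (adjusted p = 0.115). In Mapk9 KO the change of 0.93 (SE 0.19) had an adjusted p of 0.00293 but stayed under the fold limit, a 1.90-fold difference, and it passed when Mapk9 KO control replicate 2 (1.02) or Mapk9 KO injured replicate 3 (1.06) was left out.

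Ctsg encodes cathepsin G, a serine protease stored beside proteinase 3. WT control arrays read 10.07, 11.67 and 10.21 and WT injured arrays 12.75, 12.90 and 12.55. Mapk9 KO arrays read 11.60, 11.97 and 11.37 in control and 12.51, 12.78 and 12.36 in injured hips. Here too WT control replicate 2 was the highest control array of its genotype, and no control array reached an injured one. The change was 2.08 (SE 0.37, adjusted p = 0.00302) in WT and 0.90 (SE 0.21, adjusted p = 0.00549, 1.87-fold) in Mapk9 KO, where, of the arrays left out in turn, only Mapk9 KO control replicate 2 let it pass the fold limit (1.06, adjusted p = 0.00501). The WT call was lost by the methods' t-test (adjusted p = 0.0838).

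Ltf, which encodes the iron-binding lactoferrin of specific granules, differed between its 2 probes. ILMN_2889020 read 8.41, 9.33 and 8.47 in WT control and 11.37, 11.55 and 11.22 in WT injured hips, and 9.0, 9.33 and 9.16 against 11.29, 11.88 and 11.15 in Mapk9 KO. ILMN_2754364, the probe that ends in AATAAA, read 13.98, 14.12 and 13.30 in WT control and 14.35, 14.23 and 14 in WT injured hips. In Mapk9 KO it read 14.40, 14.27 and 13.71 in control and 13.91, 14.20 and 13.68 in injured hips. At the first probe the groups were far apart and at the second they overlapped. ILMN_2889020 had the largest change of the 13 probes, 2.64 (SE 0.27, adjusted p = 0.000115 by limma) in WT and 2.28 (SE 0.22, adjusted p = 1.82e-05) in Mapk9 KO. ILMN_2754364 had changes of 0.39 (SE 0.25, adjusted p = 0.286) and -0.20 (SE 0.23, adjusted p = 0.534). At this probe the WT change was 0.14 without WT control replicate 3, and the Mapk9 KO change was -0.06 without Mapk9 KO control replicate 1 and -0.41 without Mapk9 KO control replicate 3.

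Ngp encodes neutrophilic granule protein, a cystatin-like relative of the cathelicidins found in specific granules. It read 12.32, 12.63 and 12.36 in WT control and 14.18, 14.05 and 14.03 in WT injured hips. Mapk9 KO arrays read 12.90, 12.77 and 12.83 in control and 13.98, 14.25 and 13.78 in injured hips. The spread within each group was small, with an SD of 0.07 to 0.23, and no groups of one genotype overlapped. Ngp rose by 1.65 (SE 0.19, adjusted p = 0.000272 by limma) in WT and by 1.17 (SE 0.18, adjusted p = 0.0005) in Mapk9 KO.

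Camp encodes cathelicidin, the precursor of an antimicrobial peptide of specific granules. It read 12.81, 13.67 and 12.80 in WT control and 13.78, 13.91 and 13.89 in WT injured hips, and 13.30, 13.35 and 12.95 against 13.45, 13.71 and 13.33 in Mapk9 KO. The WT groups were separate by 0.11 and the Mapk9 KO groups overlapped. The changes were 0.77 (SE 0.26, adjusted p = 0.0514) and 0.30 (SE 0.19, adjusted p = 0.252), neither of which passed. Without WT control replicate 2 the WT change was 1.06 (adjusted p = 0.00401) and passed.

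S100a8 and S100a9, the calprotectin chains, were called in neither genotype. S100a8 read 13.97, 13.67 and 13.08 in WT control and 13.94, 13.98 and 13.76 in WT injured hips, and 14.22, 13.81 and 13.39 against 13.74, 14.05 and 13.44 in Mapk9 KO. S100a9 read 12.93, 13.33 and 12.71 in WT control and 13.46, 13.71 and 13.42 in WT injured hips, and 13.52, 13.48 and 12.97 against 13.24, 13.62 and 13.25 in Mapk9 KO. Apart from S100a9 in WT, where the groups were separate by 0.09, the control and injured arrays overlapped. The changes of S100a8 were 0.32 (SE 0.25, adjusted p = 0.383) in WT and -0.07 (SE 0.24, adjusted p = 0.861) in Mapk9 KO, and those of S100a9 were 0.54 (SE 0.22, adjusted p = 0.104) and 0.05 (SE 0.21, adjusted p = 0.886). The WT change of S100a8 was 0.08 without WT control replicate 3 and 0.52 without WT control replicate 1.

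Lcn2 encodes lipocalin 2, which binds bacterial siderophores and is a constituent of specific granules, and which other cell types also make in inflammation. It read 12.20, 12.63 and 12.01 in WT control and 14.34, 14.40 and 14.20 in WT injured hips. Mapk9 KO arrays read 12.77, 12.89 and 12.88 in control and 14.10, 14.53 and 13.81 in injured hips. Every injured array was above every control array. Lcn2 rose by 2.03 (SE 0.22, adjusted p = 0.00015 by limma) in WT and by 1.30 (SE 0.21, adjusted p = 0.000591) in Mapk9 KO.

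**Figure D1:**
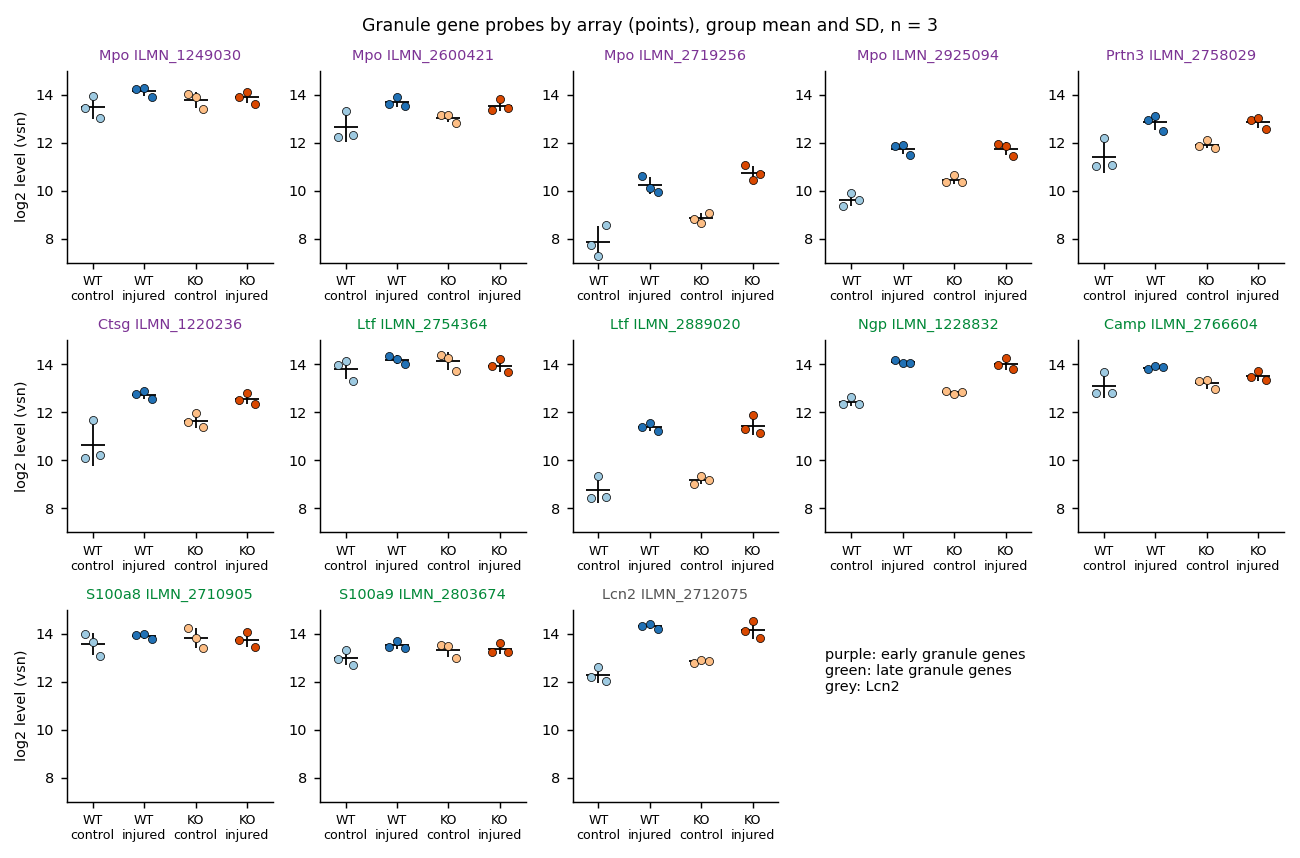
Log2 level (vsn normalized) of each of the 13 granule gene probes on 12 arrays, by group, as points, with the group mean as a horizontal line and the SD as a vertical one (n = 3). Injured arrays stand clear of control arrays at Prtn3, Ctsg, Ngp, Lcn2, 3 of the 4 Mpo probes and Ltf ILMN_2889020, in both genotypes, and they overlap in at least 1 genotype at Mpo ILMN_1249030, Ltf ILMN_2754364, Camp, S100a8 and S100a9.

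In Mapk9 KO, 5 of the 13 probes, of the 4 genes Mpo, Ltf, Ngp and Lcn2, were called higher after injury and 0 lower, against 9.59% of all probes called higher and 9.14% lower. The groups did not overlap at 8 of the 13 probes, against 24.5% of all probes. A further 2 probes, those of Prtn3 and Ctsg, passed the adjusted p but not the fold limit, so that 7 passed the adjusted p, as did 38.3% of all probes. The median change was 0.90, against -0.02 over all probes, and 11 of the 13 probes lay above 0. Over both genotypes together, 7 probes of 6 genes were called, where 16.0% of all probes were called in either direction. ILMN_2889020 of Ltf had the largest average change, 2.46 (SE 0.18, adjusted p = 9.27e-08 by limma), and Mpo ILMN_2719256 followed with 2.13 (SE 0.21, adjusted p = 1.52e-06).

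Within Mpo and Ltf, the genes read by several probes, brighter probes changed less. The Mpo probes had WT control means of 7.85, 9.62, 12.63 and 13.47, and in that order their WT changes were 2.37, 2.12, 1.05 and 0.67. Ltf, with WT control means of 8.74 and 13.80, had changes of 2.64 and 0.39. All 4 probes with a WT control mean above 13, one each of Mpo, Ltf, Camp and S100a8, were not called, and 8 of the 9 dimmer ones were called, with S100a9 (12.99) as the exception. Between genes the order was not strict. Lcn2 (WT control mean 12.28, change 2.03) and Ngp (12.43, 1.65) rose more in WT than the dimmer Prtn3 (11.41, 1.43). In Mapk9 KO, Lcn2 (12.85, 1.30) and Ngp (12.83, 1.17) likewise had larger changes than Ctsg (11.65, 0.90) and Prtn3 (11.92, 0.93). Brightness here describes a probe and not the amount of its transcript, which also depends on how well the probe binds.

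Over the array as a whole, large rises were also rarer among bright probes, in ranges of control level that share the control arrays with the change. Of the 283 probes with a WT control mean above 13, 2 were called higher (0.707%), and the highest change among them was 1.11. In the range from 8 to 10, 6.74% of 5641 probes were called higher, with a highest change of 4.93. Of the 351 probes with a Mapk9 KO control mean above 13, which included 6 granule gene probes, 0 were called higher. In the intensities before normalization, S100a8 lay at 58.1% to 76.2% of the brightest probe of its array, Ltf ILMN_2754364 at 72.7% to 84.5%, Lcn2 at up to 93.7% and Ngp at up to 80.6%. The ratio of mean intensities, injured over control in WT, was 0.967 for S100a8, 1.05 for Ltf ILMN_2754364 and 1.27 for Mpo ILMN_1249030, against 4.2 for Ltf ILMN_2889020 and 2.85 for Mpo ILMN_2719256, while the bright Lcn2 and Ngp had ratios of 3.21 and 2.45. Whether a ceiling of the signal limited the bright probes was not tested, and no probe carries a saturation flag in the tables used here.

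**Figure D2:**
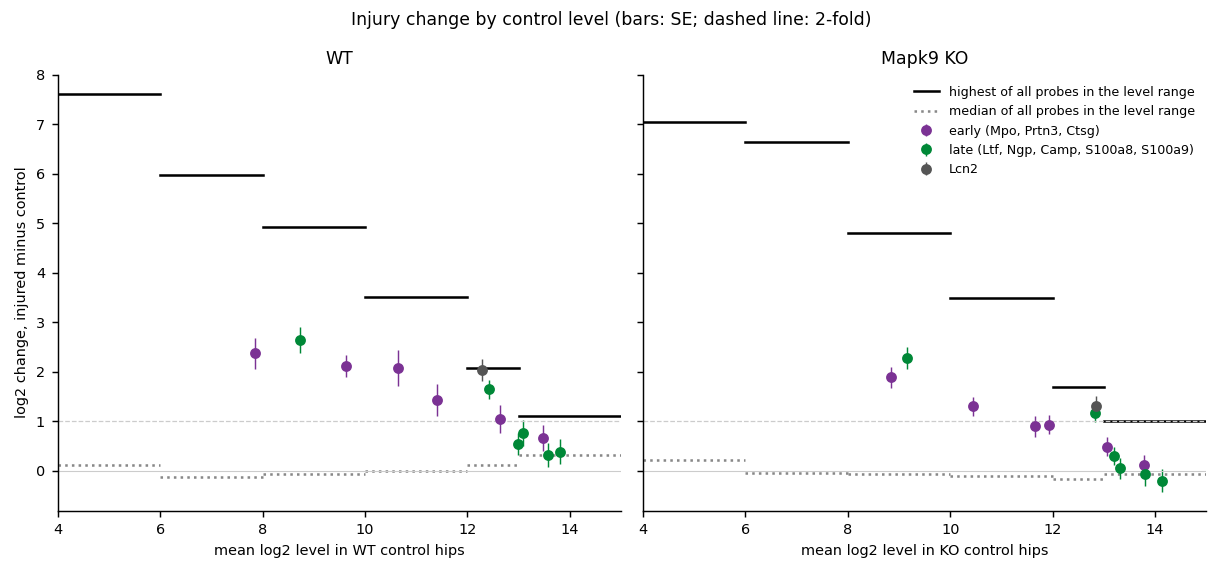
Log2 change after injury (injured minus control, bars give the SE) of the 13 granule gene probes against their mean log2 level in control hips of the same genotype, WT on the left and Mapk9 KO on the right. Black lines give the highest and dotted lines the median change over all probes in each range of control level, and the change and the level share the control arrays. The highest change of all probes falls toward the bright end, where it was 1.11 in WT and 1.00 in Mapk9 KO.

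Early and late granule genes were compared after each probe was centred on its mean over the 12 arrays, since levels of different probes cannot be set against each other. The mean change of the early probes was 1.62 in WT and 0.94 in Mapk9 KO, and that of the late probes 1.05 and 0.59. Not every probe rose, and in Mapk9 KO 2 of the 6 late probes lay below 0. The early minus late value was -0.68, -0.33 and -0.24 on the WT control arrays and 0.24, 0.21 and 0.01 on the WT injured arrays, so it was higher on every injured array. In Mapk9 KO it was -0.17, -0.01 and 0.05 in control and 0.44, 0.14 and 0.34 in injured hips, again without overlap. The difference between early and late change was 0.57 in WT (SD between arrays 0.19) and 0.35 in Mapk9 KO (SD 0.13). No test was made of this score over chosen genes.

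The difference was smaller among the dimmer probes. Probes with a WT control mean of at most 13, a limit chosen after seeing the data on arrays that also enter the change, were 5 early and 3 late ones, so that 1 early and 3 late probes were left out. Among the probes kept, the mean change in WT was 1.81 for the early ones and 1.61 for the late ones, a difference of 0.20. In Mapk9 KO the mean changes of the same probes, called or not, were 1.10 and 1.16, and the difference turned to -0.06. By counts, 5 of 6 early and 2 of 6 late probes were called higher in WT, and 2 of 6 of each in Mapk9 KO. Of the 4 late probes not called in WT, 3 had a control mean above 13 and the other was S100a9.

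**Figure D3:**
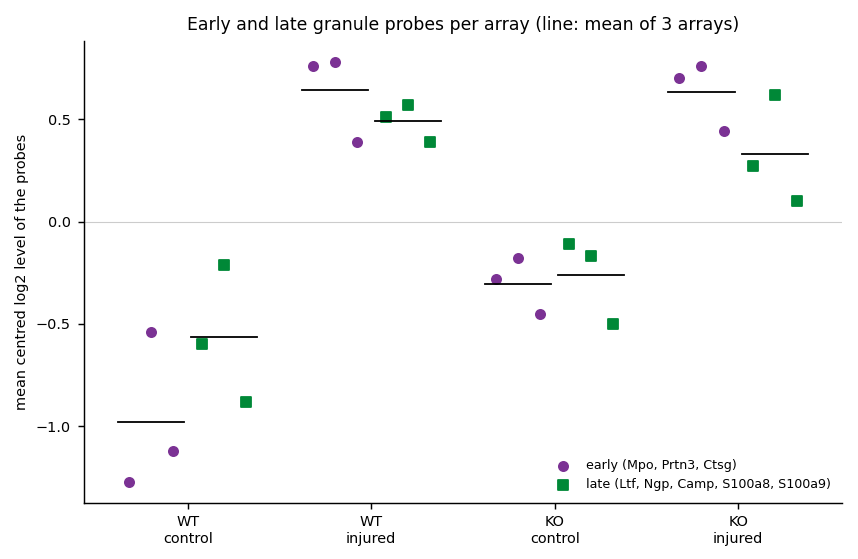
Mean centred log2 level of the 6 early and the 6 late granule gene probes on each of the 12 arrays, with each probe first centred on its mean over all arrays and a line at the mean of 3 arrays. Both sets stand higher on the injured arrays, and WT control replicate 2 stands above the other WT control arrays in both sets.

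No granule gene differed between the genotypes at the threshold. In control hips 0 of 13 probes were called by limma, where 0.119% of all probes were, although all 13 had higher means in Mapk9 KO than in WT, as did 47.8% of all probes, and 4 had an unadjusted p under 0.05, as did 6.46% of all probes. Under neqc and under quantile normalization 12 of the 13 had higher means in Mapk9 KO, and Camp lay at -0.06. Among the 314 probes with a mean log2 level above 13 over all arrays, which include 8 of the 13, 90.1% had higher means in Mapk9 KO control hips, with a median difference of 0.20. For Mpo ILMN_2925094 the difference was 0.83 (SE 0.22, adjusted p = 0.463) and for Mpo ILMN_2719256 1.00 (SE 0.31, adjusted p = 0.587), and the 3 Mapk9 KO arrays lay above the 3 WT arrays at both. Ctsg differed by 1.00 (SE 0.38, adjusted p = 0.697) and Lcn2 by 0.57 (SE 0.22, adjusted p = 0.712). At 4 probes, the 2 of Mpo, Ngp and Lcn2, the groups did not overlap, against 4.26% of all probes. Without WT control replicate 3, Mpo ILMN_2719256 was called, at 1.35 (adjusted p = 0.0188), and it was the only granule gene call between control groups under any alternative.

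In injured hips 0 of 13 probes were called between the genotypes, where 0.181% of all probes were. The differences ran from -0.37 for Camp to 0.52 for Mpo ILMN_2719256, which alone had an unadjusted p under 0.05 (adjusted p = 0.382 by limma), and at 0 probes did all Mapk9 KO arrays lie above all WT arrays, against 7.36% of all probes. At 1 probe, that of Camp (SE 0.17, adjusted p = 0.4), all Mapk9 KO arrays lay below all WT arrays, against 9.47% of all probes. With the replicate number as a block, 0 of 13 were called as well, where 0.895% of all probes were.

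The injury change itself was smaller in Mapk9 KO than in WT at all 13 probes, as it was at 51.9% of all probes, and 0 of these differences passed the test, as did 0.0% of all probes. The differences, Mapk9 KO change minus WT change, had a median of -0.50 and ran from -1.18 to -0.36. The most negative was that of Ctsg (SE 0.47, unadjusted p = 0.025, adjusted p = 0.428 by limma), followed by Mpo ILMN_2925094 with -0.82 (SE 0.29, unadjusted p = 0.0128, adjusted p = 0.382) and Lcn2 with -0.73 (SE 0.29, unadjusted p = 0.0268, adjusted p = 0.432). These were the 3 probes with an unadjusted p under 0.05, as had 9.94% of all probes. The same control arrays enter this difference and the comparison of the control groups, so the higher control levels in Mapk9 KO and the smaller changes there are not separate measurements. With the replicate block 112 probes of the whole array passed, and 0 of the 13, with a lowest adjusted p of 0.129, while 7 of the 13 had an unadjusted p under 0.05, as did 15.8% of all probes.

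Bright probes in general moved the same way. Among the 314 probes with a mean log2 level above 13 over all arrays, which include 8 granule gene probes, 95.2% had a smaller injury change in Mapk9 KO than in WT, with a median difference of -0.39, and the 8 granule gene probes lay between -0.73 and -0.39. Among the 2849 probes with a mean from 10 to 12 the share was 63.7% and the median -0.11, and the granule gene probes there lay between -1.18 and -0.36. When the intensities were normalized with quantiles, which gives all arrays the same distribution, the median difference of the 13 probes was -0.19, or -0.27 with background correction as well (neqc). Under neqc Ctsg kept a difference of -1.03 and Mpo ILMN_2925094 one of -0.73, while S100a8 went from -0.39 to -0.02, Ngp from -0.48 to -0.15 and Ltf ILMN_2754364 from -0.59 to -0.19. All 13 stayed below 0 and 0 were called under either normalization. In WT the injury change of S100a8 was 0.32 with the deposited values and 0.00 under neqc, and that of Ltf ILMN_2754364 0.39 and 0.02. The WT change likewise went from 0.67 to 0.32 for Mpo ILMN_1249030, from 0.54 to 0.26 for S100a9 and from 0.77 to 0.49 for Camp under neqc, with the same values under quantile normalization.

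**Figure D4:**
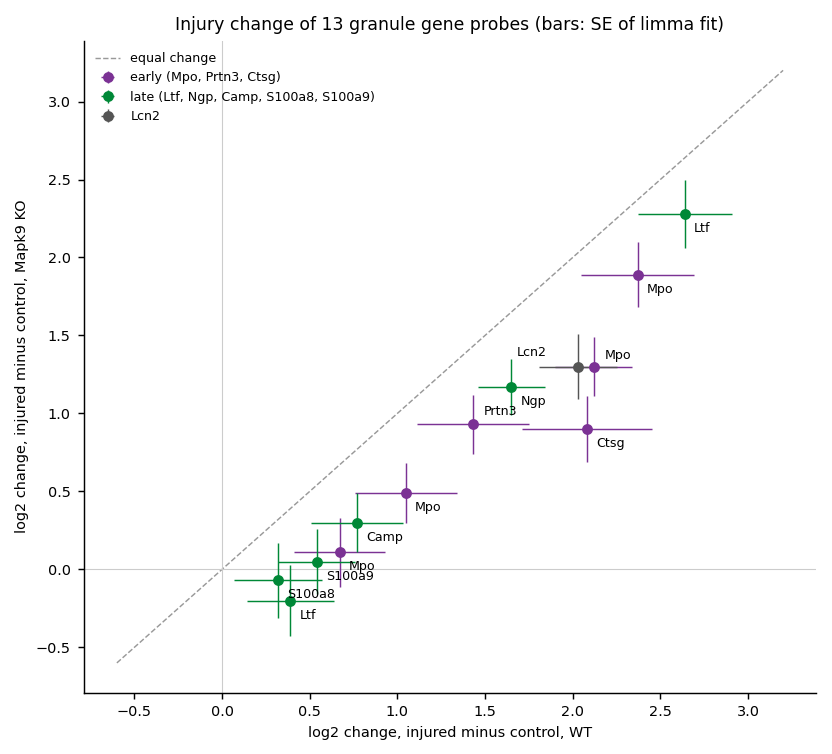
Log2 change after injury of the 13 granule gene probes in Mapk9 KO (vertical) against WT (horizontal), with bars for the SE of each limma fit and a dashed line where both are equal. All 13 probes lie below the line, and the late probes other than Ngp and Ltf ILMN_2889020 lie between -0.20 and 0.30 on the Mapk9 KO axis.

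Other granule genes were read beside these, from lists of which the counts are given over genes measured. For genes, a probe called higher was found in 8.36% of all symbols in WT and 10.6% in Mapk9 KO, and one called lower in 8.25% and 10.4%. Of 7 other azurophil granule genes, 4 were called higher and 1 lower in WT, and 3 and 1 in Mapk9 KO, with a median change over their probes of 0.32 and 0.23 against -0.02 over all probes. Nkg7, which encodes a granule membrane protein shared with killer cells, rose by 2.44 (SE 0.28) in WT and 1.49 (SE 0.18) in Mapk9 KO. Cst7, an inhibitor of lysosomal cysteine proteases, rose by 2.28 (SE 0.29) and 1.63 (SE 0.17), and Ms4a3, a membrane protein of granulocyte progenitors, by 2.18 (SE 0.35) and 1.24 (SE 0.18) at its probe detected on all arrays. The gene called lower was Gusb, the lysosomal beta-glucuronidase that most cells make.

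Among 18 other specific and gelatinase granule genes, 15 were called higher in WT and 13 in Mapk9 KO, and 1 was called lower in each, with a median change of 1.43 and 1.62. Adam8, a metalloprotease of granulocytes, rose by 3.30 (SE 0.26) and 3.42 (SE 0.19) at ILMN_1224005. Cd177, a surface and granule protein of neutrophils, rose by 2.12 (SE 0.22) and 2.35 (SE 0.23) at ILMN_1225233. At its brighter probe, ILMN_2789900, the changes were 1.94 (SE 0.25) and 1.53 (SE 0.22). Mmp25, a membrane-bound protease of neutrophils, was below detection on every control array and rose at least 3.05-fold in WT and at least 3.15-fold in Mapk9 KO. The gene called lower was Lyz, a lysozyme symbol, at 2 probes in WT and 1 in Mapk9 KO. Its probe detected on all arrays (ILMN_2878071) had changes of 0.46 (SE 0.23) and 0.02 (SE 0.21). Mmp9, a gelatinase, lay below 0 in both genotypes and was not called. Its changes were -0.37 (SE 0.24, adjusted p = 0.287 by limma) in WT and -0.90 (SE 0.21, adjusted p = 0.00596) in Mapk9 KO, under the fold limit.

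Neutrophil receptors rose in both genotypes, with 10 of 13 genes called higher and 0 lower in each and median changes of 2.00 and 1.81. Fcgr3, a low-affinity Fc receptor, rose by 2.00 (SE 0.21) and 1.81 (SE 0.17). Csf3r, the receptor of granulocyte colony-stimulating factor, rose by 2.38 (SE 0.20) and 2.76 (SE 0.31) at ILMN_2806180. At ILMN_1255648, the Csf3r probe detected on all arrays, the changes were 1.71 (SE 0.23) and 1.76 (SE 0.18). Fpr1, a receptor of formylated peptides, was undetected in control and rose at least 1.99-fold and 2.54-fold. Trem1, which amplifies neutrophil and monocyte activation, rose at least 17.0-fold in WT at ILMN_2871945. At its other probe, ILMN_2428545, the log2 change in WT was 2.00 (SE 0.28).

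Of 8 granulocyte transcription factors, 5 were called higher in WT and 4 in Mapk9 KO, and 0 lower. Cebpe, which directs late granulocyte maturation and the specific granule genes, rose by 2.97 (SE 0.23) and 2.87 (SE 0.20) at ILMN_3103062, detected on 10 arrays. Its probes detected on all arrays rose less, above all in Mapk9 KO. The changes were 2.15 (SE 0.28) and 1.33 (SE 0.22) at ILMN_1220301 and 2.19 (SE 0.31) and 1.60 (SE 0.21) at ILMN_3029849. Cebpb, its relative active in emergency granulocyte production, rose by 2.44 (SE 0.19) and 2.32 (SE 0.19). Klf5 rose by 2.02 (SE 0.30) and 1.70 (SE 0.19). Myb, a factor of immature blood cells, rose by 1.16 (SE 0.21, adjusted p = 0.00304) in WT and had a change of 0.86 (SE 0.20, adjusted p = 0.00639) in Mapk9 KO, under the fold limit. Sfpi1, which encodes PU.1, had changes of 0.88 (SE 0.21, adjusted p = 0.0119) and 0.95 (SE 0.18, adjusted p = 0.002), under the fold limit.

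Partners and receptors of calprotectin and lipocalin 2 were called in 1 of 7 genes in each genotype. That gene was Cd14, the co-receptor of Toll-like receptor 4, which rose by 5.01 (SE 0.23) and 5.33 (SE 0.19). Tlr4 itself had changes of 0.38 (SE 0.18, adjusted p = 0.166) and 0.70 (SE 0.20, adjusted p = 0.0182) at ILMN_2752966, and Ager of 0.02 and 0.29. Of 7 neutrophil chemoattractants and growth factors, 5 were called higher in WT and 4 in Mapk9 KO. Cxcl1, undetected in WT control, rose at least 99.8-fold there, and Cxcl2 at least 25.1-fold in WT and 21.9-fold in Mapk9 KO at ILMN_2811154. Il1b rose by 3.45 (SE 0.26) and 3.26 (SE 0.21).

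Markers of other blood and tissue cells moved beside the granule genes, and their part in the granule gene changes was not tested. All 5 eosinophil genes measured were called higher in WT and 4 in Mapk9 KO, with median changes of 1.92 and 1.51, and Epx, the eosinophil peroxidase, rose by 3.36 (SE 0.27) and 2.88 (SE 0.26). Of 10 mast cell and basophil genes, 5 were called higher and 1 lower in WT, and 3 and 3 in Mapk9 KO. Of 8 B lineage genes, 3 were called higher and 0 lower in WT, and 1 and 1 in Mapk9 KO. Most macrophage and monocyte genes went the other way, with 7 of 10 called lower in WT and 8 in Mapk9 KO and 0 higher in either. The mean log2 level of this list went from 8.70 to 8.95 in WT control to 7.47 to 7.83 in WT injured hips. Ly6c, also on this list, lay above 0 but under the fold limit. Its changes were 0.98 (SE 0.20, adjusted p = 0.00608 by limma) in WT and 0.84 (SE 0.17, adjusted p = 0.00315) in Mapk9 KO. Of 14 erythroid genes, 4 were called lower in WT and 5 in Mapk9 KO, and 0 higher. All 13 muscle genes fell in Mapk9 KO and 12 in WT, by a median over their probes of -4.34 and -2.69. With quantile normalization of intensities not corrected for background, the WT counts were 4 macrophage genes lower, 2 mast cell and basophil genes higher and 1 B lineage gene higher. Of 12 chondrocyte genes, 7 were called higher and 1 lower in WT, and 8 and 0 in Mapk9 KO. Among T cell and platelet genes none was called higher in either genotype by limma, of 5 and 6 genes measured, and 1 T cell gene was called lower in Mapk9 KO.

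**Figure D5:**
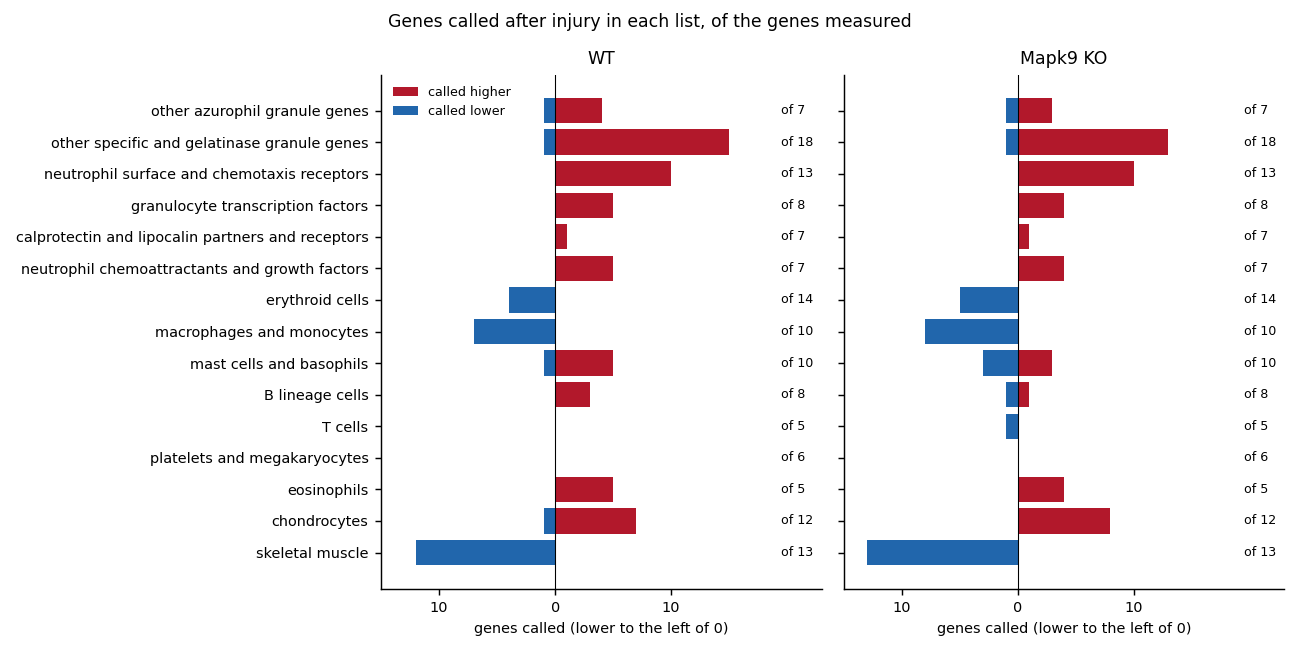
Number of genes with a probe called higher (red, to the right) and lower (blue, to the left) after injury in each list, WT on the left and Mapk9 KO on the right, with the number of genes measured at the right edge. Specific and gelatinase granule genes (15 of 18 in WT) and neutrophil receptors (10 of 13) rose, and skeletal muscle (12 of 13) and macrophage genes (7 of 10) fell.

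The probes most like the early granule genes over the 12 arrays, by the root mean square difference of centred log2 levels, were those of Sorl1 (0.153), NE (0.160), Pglyrp1 (0.162), Coro1a (0.184) and 4930513E20Rik (0.194), where the median over all other probes was 0.781. NE is the symbol in the file for a probe whose accession is that of Elane, neutrophil elastase, the third protease of the azurophil granule. It rose by 1.96 (SE 0.23, adjusted p = 0.00026 by limma) in WT and by 1.10 (SE 0.17, adjusted p = 0.000571) in Mapk9 KO. Pglyrp1, a peptidoglycan recognition protein of specific granules, rose by 1.44 (SE 0.25) in WT and had a change of 0.87 (SE 0.24) in Mapk9 KO. Most like the late granule genes were Coro1a (0.0849), Fcer1g (0.0945), Mif (0.106), 9430023L20Rik (0.119) and Gtf2f2 (0.12), with a median of 0.578 over all other probes. Coro1a, an actin regulator of leukocytes, rose by 1.08 (SE 0.23) in WT and had a change of 0.58 (SE 0.19) in Mapk9 KO at ILMN_2714796.

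In the RefSeq gene table (GRCm38.p6), Prtn3 and Elane are neighbours on chromosome 10, S100a8 and S100a9 on chromosome 3, Mpo lies beside Lpo on chromosome 11, and Ctsg lies between Mcpt8 and Gzme on chromosome 14. Mcpt8, a protease of basophils, was undetected in WT control and rose at least 1.63-fold there. Ngp, Camp and Ltf all lie on chromosome 9 and are not next to each other.

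The promoters of all 9 genes were in the RefSeq promoter table (GRCm38.p6), and the 250 bases before each start were searched on both strands. AGGAAG, which holds the core bound by PU.1 and other Ets factors, was in 7 of the 9 promoters, against 29.5% of 32851 promoters in the table. TTNCNNAA, a loose form of the C/EBP site, was in 5 of 9, against 36.8%, and TATAAA in 2 of 9, against 12.4%. The promoters of 2 early genes, of Lcn2 and of Ngp are shown as those of genes that rose in at least 1 genotype, with capitals for AGGAAG or its reverse complement CTTCCT.
Prtn3, chr10:79879417-79879666, plus strand: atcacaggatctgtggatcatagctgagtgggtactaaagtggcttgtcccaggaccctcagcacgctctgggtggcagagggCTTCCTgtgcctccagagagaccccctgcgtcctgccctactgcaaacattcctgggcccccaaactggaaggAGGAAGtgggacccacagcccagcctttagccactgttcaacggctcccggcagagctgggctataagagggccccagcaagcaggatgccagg
Ctsg, chr14:56102575-56102824, minus strand: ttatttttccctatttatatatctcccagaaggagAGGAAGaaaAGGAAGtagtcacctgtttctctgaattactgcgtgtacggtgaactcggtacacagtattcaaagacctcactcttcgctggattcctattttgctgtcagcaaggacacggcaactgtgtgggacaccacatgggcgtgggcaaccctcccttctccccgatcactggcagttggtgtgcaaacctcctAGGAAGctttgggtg
Lcn2, chr2:32387740-32387989, minus strand: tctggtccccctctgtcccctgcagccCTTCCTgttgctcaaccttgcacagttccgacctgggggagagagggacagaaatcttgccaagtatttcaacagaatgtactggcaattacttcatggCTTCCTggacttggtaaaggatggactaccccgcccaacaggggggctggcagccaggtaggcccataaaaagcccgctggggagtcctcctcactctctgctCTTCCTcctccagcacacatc
Ngp, chr9:110419558-110419807, plus strand: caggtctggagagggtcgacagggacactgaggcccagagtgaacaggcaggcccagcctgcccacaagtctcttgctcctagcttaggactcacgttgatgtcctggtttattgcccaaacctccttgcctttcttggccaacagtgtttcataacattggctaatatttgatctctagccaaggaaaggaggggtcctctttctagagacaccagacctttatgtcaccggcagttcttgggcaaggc
Prtn3 holds 2 matches, Ctsg and Lcn2 hold 3 each, and Ngp holds 0 but 3 matches of TTNCNNAA. The S100a9 promoter holds 0 matches of AGGAAG and 2 of TTNCNNAA. A match of letters is a description of the sequence and no measurement of binding.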

How the data were processed

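Bead intensities of 45281 probes and their detection p-values (against negative control beads), deposited by the authors without normalization, and a deposited table of 21004 probes on the log2 scale were used. For the latter the authors corrected background with the negative controls and normalized with vsn, whose versions are not given in the sources used here. Array annotation in that table names no genome build, so no probe coordinates are given. Groups were taken from the sample labels, and 0 value columns were left without a sample.

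Groups were compared on the deposited log2 values with limma 3.58.1 (lmFit and eBayes, R 4.3.3) over all 21004 probes with Benjamini-Hochberg adjustment. A probe was called if it differed more than 2-fold with an adjusted p under 0.05, and a difference between injury changes at the adjusted p alone. Comparisons of 2 groups were fitted on those groups only, and the difference of changes and the average change on all 4 groups. The steps were tested on simulated data. Tables and figures were made with Python 3.11.15, pandas 2.3.3, numpy 2.4.6, scipy 1.17.1 and matplotlib 3.10.9. The smallest two-sided p that exact permutation of 3 against 3 arrays allows is 0.1. The limma p-values rest on the spread between 3 samples per group, moderated over all probes, and the number of arrays limits the precision. The methods describe a sample as hips of several animals, without describing the Mapk9 KO arrays separately. A fold given as "at least" concerns a probe detected (detection p under 0.05) on no array of the dim group, and it sets the bright group's mean log2 level against a mean over the dim arrays, each at the level of its dimmest detected probe or of the probe itself if that was higher.

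Members and gene lists were chosen with earlier results of these data known. All member probes were named, with at most 4 genes per list (the smallest adjusted p in WT among those called) and the 5 genes nearest in profile. Gusb, Lyz, Mmp9, Sfpi1, Tlr4, Ager, Ly6c and Mcpt8 were named after their values were seen. Arrays with the same replicate number deviated together from their group means (18 pairs, Pearson r across probes 0.153 to 0.39, against -0.289 to 0.0825 in 36 pairs of unlike number), so the numbers were taken to pair the samples, and the replicate block was fitted as an alternative. The other alternatives were neqc (offset 16) and quantile normalization of the intensities, array medians subtracted, filters on detection, all arrays in one fit, label codes as a block, the methods' t-test, no fold limit, 1 probe per gene (the one of highest mean), and leaving out each array.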

Additional observations from a re-analysis of the deposited data

Results flagged for a closer look

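At Ltf ILMN_2754364 the injured array minus the control array of the same replicate number was 0.38, 0.10 and 0.70 in WT and -0.50, -0.07 and -0.03 in Mapk9 KO, so all WT pairs went up and all Mapk9 KO pairs down. The difference of the changes was -0.59 (SE 0.35, unadjusted p = 0.112, adjusted p = 0.609 by limma), which did not pass. This probe lay at 72.7% to 84.5% of the brightest probe on each array. Under neqc its change was 0.02 in WT and -0.17 in Mapk9 KO, and the difference was -0.19.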

How the results depend on the processing

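The count of granule gene probes called higher after injury in WT, 8, was 5 by the methods' t-test after Benjamini-Hochberg adjustment, 4 of 9 with the highest-mean probe per gene, and 7 to 9 with each array left out. In Mapk9 KO the count of 5 was 2 of 9 with the highest-mean probe per gene and 5 to 7 with each array left out, and the average count of 7 was 4 of 9 with the highest-mean probe. The count between control groups went from 0 to 1 without WT control replicate 3, and those between injured groups and for the difference of changes were 0 under every alternative run. With the replicate block the counts were 8 in WT, 5 in Mapk9 KO and 7 on average, and 0 in the other 3 comparisons, so the block changed no call of a granule gene. Over all probes the block moved the calls between injured groups from 38 to 188. The early minus late difference fell to 0.20 in WT and turned to -0.06 in Mapk9 KO with only probes of a WT control mean of at most 13, an alternative chosen after seeing the data, and with each array left out it was 0.44 to 0.65 and 0.28 to 0.43. Of the values for single probes, 1325 kept direction and side of the threshold, 48 changed sign, 9 gained and 11 lost a call. The sign changed in small differences. Under neqc, quantile normalization and all probes after neqc, Camp between control groups went to -0.06, and between injured groups Mpo ILMN_2600421 went to 0.01, Prtn3 to 0.11 or 0.12, Ngp to 0.11, S100a8 to 0.00 and Lcn2 to 0.04. Under the same 3 settings the average change of Ltf ILMN_2754364 went to -0.07 and that of S100a8 to -0.00. Between injured groups, Mpo ILMN_2925094 went to -0.00 with array medians subtracted and Prtn3 to 0.11 with the label code block. With each array left out, the WT change ran from 0.44 to 0.91 for Mpo ILMN_1249030, 0.14 to 0.56 for Ltf ILMN_2754364, 0.08 to 0.52 for S100a8 and 0.40 to 0.71 for S100a9. The Mapk9 KO change ran from -0.41 to -0.06 for Ltf ILMN_2754364 and 0.17 to 0.38 for Camp, and it ran from -0.09 to 0.24 for Mpo ILMN_1249030, -0.28 to 0.14 for S100a8 and -0.13 to 0.14 for S100a9. The difference between control groups ran from -0.04 to 0.39 for Camp and -0.01 to 0.45 for S100a8. That between injured groups ran from -0.12 to 0.17 for Mpo ILMN_2925094, -0.18 to 0.14 for Prtn3, -0.16 to 0.20 for Ltf ILMN_2889020, -0.21 to 0.03 for Ngp, -0.30 to 0.00 for S100a8 and -0.35 to 0.01 for Lcn2, and the average change of Ltf ILMN_2754364 from -0.03 to 0.18. Calls in WT were lost for Prtn3 (adjusted p = 0.115) and Ctsg (adjusted p = 0.0838) by the methods' t-test, for Prtn3 with all probes after neqc (1.23, adjusted p = 0.0602), and for Mpo ILMN_2600421 under neqc and quantile normalization (0.78), with all probes after neqc (adjusted p = 0.119) and by the methods' t-test (adjusted p = 0.147). The cause was not tested.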
